A study of Mus musculus with 38 samples.

Results

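The regions described here are distal ATAC-seq peaks of mouse cortical collecting duct (CCD) that carried signal after infusion of 1 agent and were at the floor of the deposited scale after the other. They were chosen by their group values: the annotation had to be intron or intergenic, the log2 mean normalised read count of 1 group had to be 0 or less, and that of the other had to be 1 or more. Of 270806 peaks in the table, 234060 were intronic or intergenic, and 18093 of these (7.73%) met the rule. With dDAVP above the floor and vehicle at it there were 14324 peaks, called dDAVP-only below. With the groups exchanged there were 3769, called vehicle-only. The names describe the deposited values and do not mean that the other group had no reads.

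The CCDs were microdissected from kidneys of wild-type C57BL/6 mice infused for 5 days with saline (vehicle) or with dDAVP (desmopressin, an analogue of vasopressin that is selective for its V2 receptor), and each ATAC-seq group had 3 libraries. Each library was made from 3 dissected duct segments, per the labels' protocols, and the labels did not say whether a library stood for 1 animal. The same 2 treatments were measured by RNA-seq in 4 libraries each. RNA levels without regard to treatment came from a further table of 4 wild-type units of 3 libraries each, whose labels gave C57BL/6 and dDAVP while the table's own name spoke of no vasopressin. Aqp2, the defining gene of principal cells, was at 11230 to 27630 TPM in these units, while Umod of the thick limb was at 7.273 to 862.6 and Slc34a1 of the proximal tubule at 6.68 to 392.4 TPM. The ATAC-seq table gave group means only, so neither the depth nor the spread between libraries could be computed for any peak.

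Vasopressin binds its V2 receptor on principal cells of the collecting duct and raises cyclic AMP, which activates protein kinase A and moves the water channel AQP2 to the apical membrane. Over days it also raises the amount of AQP2 through transcription. ATAC-seq inserts adapters where DNA is free of nucleosomes. Strong distal peaks are often enhancers, whereas peaks of a few reads lie close to the level at which insertions anywhere in the genome are counted.

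No genome was used here, so the only sequences at hand were those of members that lay wholly inside a RefSeq start-site window (250 bases before to 50 after a start site, GRCm38.p6, the same build as mm10). There were 37 such dDAVP-only peaks of 57 that overlapped a window and 6 such vehicle-only peaks of 16, in each class about 0.4% of the peaks before the condition of lying wholly inside (0.398% and 0.425%). Most of these start sites belong to predicted non-coding genes, which the peak table did not use, so the peaks are still annotated as distal. The sequences below are the 3 strongest of each class and those with an AP-1 site or the shorter core of a cyclic AMP response element, because the AP-1 and cyclic AMP response elements are the motifs through which Fos and Jun dimers and CREB factors bind. Each is the whole peak, 5′ to 3′ on the strand of the start site, with motif matches in capitals, from the RefSeq table.
Fbp1 dDAVP-only peak, chr13:62917797-62917923, minus strand: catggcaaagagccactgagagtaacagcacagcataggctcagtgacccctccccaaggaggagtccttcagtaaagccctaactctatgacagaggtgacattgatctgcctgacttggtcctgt
Dapk1 dDAVP-only peak, chr13:60508807-60508880, minus strand: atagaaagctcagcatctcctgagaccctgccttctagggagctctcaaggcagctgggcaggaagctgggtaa
Mir5118 dDAVP-only peak, chr16:55582470-55582594, minus strand: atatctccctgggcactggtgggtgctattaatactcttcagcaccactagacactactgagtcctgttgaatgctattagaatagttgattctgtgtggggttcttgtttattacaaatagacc
Snord14d dDAVP-only peak, chr10:46229027-46229175, plus strand: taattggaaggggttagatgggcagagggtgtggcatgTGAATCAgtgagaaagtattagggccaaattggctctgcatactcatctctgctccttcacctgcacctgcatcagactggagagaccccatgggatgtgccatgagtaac
Rbm38 dDAVP-only peak, chr2:173061865-173061995, minus strand: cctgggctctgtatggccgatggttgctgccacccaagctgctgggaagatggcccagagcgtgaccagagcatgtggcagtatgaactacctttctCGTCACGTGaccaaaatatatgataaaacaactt
1700061F12Rik dDAVP-only peak, chr2:8946687-8946784, plus strand: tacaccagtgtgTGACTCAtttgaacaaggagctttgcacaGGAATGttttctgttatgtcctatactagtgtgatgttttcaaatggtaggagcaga
3830408C21Rik dDAVP-only peak, chr13:107063567-107063640, plus strand: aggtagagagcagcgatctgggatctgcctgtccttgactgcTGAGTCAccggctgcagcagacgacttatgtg
Rtn4rl1 dDAVP-only peak, chr11:75246412-75246485, minus strand: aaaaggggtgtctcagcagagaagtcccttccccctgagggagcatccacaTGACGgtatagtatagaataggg
Rsl24d1 dDAVP-only peak, chr9:73192434-73192507, plus strand: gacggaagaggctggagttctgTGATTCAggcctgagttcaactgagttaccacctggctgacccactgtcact
Usp6nl dDAVP-only peak, chr2:6478110-6478223, minus strand: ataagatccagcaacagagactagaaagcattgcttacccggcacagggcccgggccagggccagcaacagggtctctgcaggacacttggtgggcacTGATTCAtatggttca
Ntn1 vehicle-only peak, chr11:68399292-68399425, plus strand: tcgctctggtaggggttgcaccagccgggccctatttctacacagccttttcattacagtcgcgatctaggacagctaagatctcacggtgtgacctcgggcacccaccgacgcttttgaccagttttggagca
Platr26 vehicle-only peak, chr2:71750525-71750613, minus strand: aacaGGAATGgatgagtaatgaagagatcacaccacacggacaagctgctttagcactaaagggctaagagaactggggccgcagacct
1700028D13Rik vehicle-only peak, chr5:112121004-112121077, minus strand: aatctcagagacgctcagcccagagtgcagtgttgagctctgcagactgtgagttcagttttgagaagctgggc

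Motifs were searched on both strands as TGACGTCA (the full cyclic AMP response element), TGACG (its shorter core, which the full element also holds), TGANTCA (AP-1), AGATAA (bound by GATA factors), TGTTTAC (forkhead factors), CCGGAA (ETS factors), CTTTGAT (TCF and LEF factors), GTTAATNAT (HNF1), CACGTG (E-box), AGAACA (part of the steroid receptor element) and CATTCC (TEAD). In the central 74 bases, AP-1 was in 4 of the 37 dDAVP-only sequences (10.8%), in none of the 6 vehicle-only sequences, in 10 of all 262 distal peaks wholly inside a window (3.82%) and in 2.16% of the 32851 start-site windows. Over whole peaks it was in 5 of the 37 and 16 of the 262. The full cyclic AMP response element was in none of the 37 or the 6 and in 3 of the 262, and its shorter core was in 2 of the 37. With 6 vehicle-only sequences, the classes cannot be compared on any of these motifs. The median GC content was 52.7% for dDAVP-only and 52% for vehicle-only sequences, beside 52.4% for the 262. A CpG was in 24 of the 37 (64.9%), in 5 of the 6 (83.3%) and in 77.9% of the 262.

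The dDAVP-only peaks outnumbered the vehicle-only peaks 3.8 to 1 and made up 79.2% of the members. They were 6.12% of all distal peaks, and the vehicle-only peaks were 1.61%. Both classes were weak. In dDAVP-only peaks the dDAVP mean was 2.01 to 12.7 normalised reads per library with a median of 2.89. In vehicle-only peaks the vehicle mean was 2 to 10 reads with a median of 2.7. Summed over the 3 libraries, the median member thus rested on 8.67 normalised reads in dDAVP-only and 8.09 in vehicle-only peaks, and 54.6% and 64.6% of the members were under 9. Most members also shared their exact value with another member (85.3% and 70%), as sums of few reads do.

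The overall mean in the table is the mean of the 2 group means, to within a relative error of 6e-09 in the 235702 peaks above the floor in both groups, so the value behind each floored entry could be recovered. The floor stood for a group mean of 1 normalised read or less, not for absence. In dDAVP-only peaks the vehicle mean was exactly 0 in 2609 (18.2%), and in the rest it fell in 3 bands with medians of 0.328, 0.650 and 0.959, close to what 1, 2 and 3 reads summed over 3 libraries give. In vehicle-only peaks the dDAVP mean was exactly 0 in 204 (5.41%), and 36% lay in the highest band. Where the floored group had no read at all, dDAVP-only peaks outnumbered vehicle-only peaks 12.8 to 1. The floored group was thus more often empty in dDAVP-only peaks than in vehicle-only peaks.

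**Figure D1:**
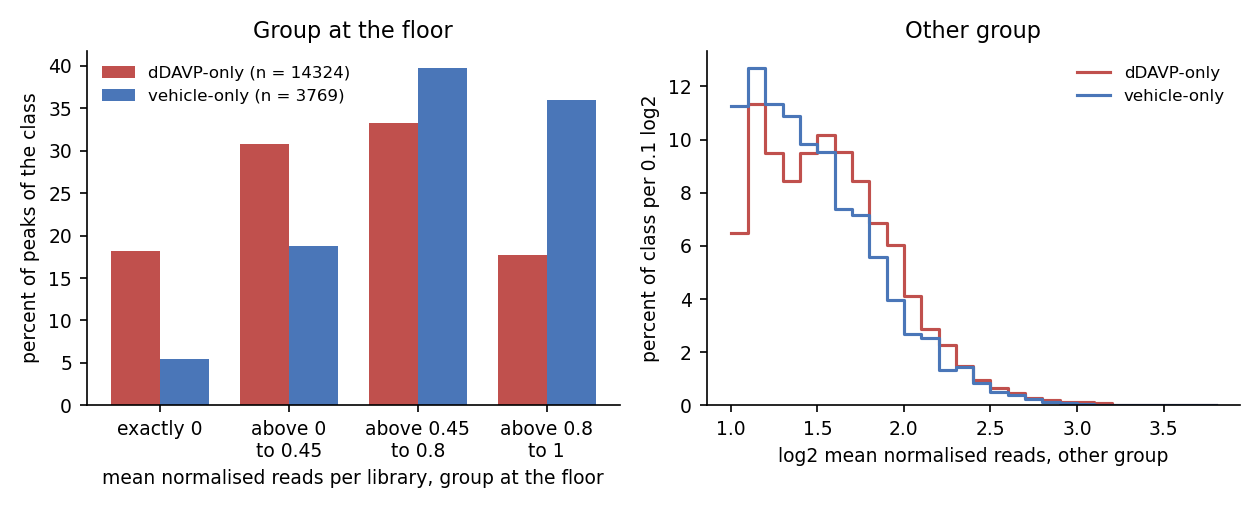
Left, the percent of dDAVP-only (n = 14324) and vehicle-only (n = 3769) distal peaks by the recovered mean normalised reads per library of the group at the floor. Right, the percent of each class per 0.1 of the log2 mean of the other group. The exactly 0 bar holds 18.2% of dDAVP-only and 5.41% of vehicle-only peaks, and most of both curves lies between 1 and 2 on the log2 scale.

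The excess of dDAVP-only peaks moved with the scale of the groups. Summed over all peaks with recovered or listed means, the dDAVP signal was 0.71 of the vehicle signal. The ratio was 1.51 in peaks of an overall log2 mean of 0 to 1, 1.12 at 1 to 2, 0.873 at 2 to 4, 0.73 at 4 to 7 and 0.665 at 7 or more. The dDAVP group was therefore higher in weak peaks and lower in strong ones across the whole table, and the part of this in the excess was not tested. With the dDAVP values rescaled to an equal sum at an overall log2 mean of 1 to 2, there were 12098 dDAVP-only and 4653 vehicle-only peaks. With an equal sum over all peaks there were 18249 and 2087. The direction was the same under both scalings.

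The limit cut through a dense part of the distribution. Just inside it, dDAVP-only peaks near Gm27162, in intron 7 of Uaca and near Gm10646 each had 6.02 summed dDAVP reads and 0 vehicle reads. Just outside, peaks near Gm5524, in intron 2 of Nbeal1 and near Rgs1 had 5.98 and 0.957. For vehicle-only peaks, those near Mir1195, Ppp2r2b and Hs3st4 had 6.01 summed vehicle reads and 1.12 to 1.13 dDAVP reads, and those near 4930567K20Rik, Rbfox1 and Atp2b1, just outside, had 5.96 and 2.84 to 2.86. Between 1 and 1.1 on the log2 scale there were 941 dDAVP-only and 430 vehicle-only peaks, and 795 and 517 further distal peaks had the other group between 0.9 and 1.

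Few members were called by the authors, whose test used the same contrast as the rule. In the authors' deposited table, 389 dDAVP-only peaks (2.72%) were called higher at an adjusted p below 0.05, beside 2290 of all 270806 peaks (0.846%). The authors' deposited table had 23 vehicle-only peaks (0.61%) called lower, beside 16190 of all peaks (5.98%). Nothing is read from these shares, since the members were selected on the values tested. The authors' deposited table gave median log2 fold changes of 2.5 in dDAVP-only and -1.76 in vehicle-only peaks. The 389 called peaks lay near 366 genes, had a dDAVP log2 mean of 1.84 to 3.66 with a median of 2.49, and were wider than the class, with a median width of 140 bases. Nr2f2 had 4 of them and Mir6401 had 3, and no other gene had more than 2.

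The 10 strongest dDAVP-only peaks had dDAVP means of 9.07 to 12.7 reads. The strongest (chr17:87150413-87150705, 293 bases, intergenic, nearest gene Socs5, a suppressor of cytokine signalling) had 12.7 reads per library with dDAVP and 0.996 with vehicle. The second (chr11:115590457-115590860) lay in intron 7 of Gga3, an adaptor of vesicle traffic from the Golgi, with 11.4 and 0.67 reads. The third (chr7:30274996-30275396) lay in intron 1 of Wdr62, whose product acts at the mitotic spindle, with the nearest gene given as LOC108167416. It had 10.8 reads with dDAVP and 0 with vehicle, the only one of the 10 with no vehicle read, and the lowest adjusted p of the class in the authors' deposited table, 1.22e-05.

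The other 7 lay near Mir6401 (chr7:139791435-139791638), Cachd1 (chr4:100760260-100760776), Fabp6 (chr11:43588154-43588372), Ppp1r1a (chr15:103540253-103540385), Kif26a (chr12:112282842-112283157), Tdpoz4 (chr3:93801443-93801756) and, inside intron 41 of Cep290, 4930430F08Rik (chr10:100549325-100549501). Their vehicle means were 0.332 to 0.994 reads. Ppp1r1a encodes an inhibitor of protein phosphatase 1 that is switched on by protein kinase A, and Cep290 a protein of the primary cilium. In these 10 peaks the vehicle sum over 3 libraries was 0 in 1 peak, 0.996 to 0.998 in 5 and 2.01 to 2.99 in 4.

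The 10 strongest vehicle-only peaks had vehicle means of 7.35 to 10 reads and were narrow, 74 to 228 bases. The strongest was an intergenic peak near Dsg1c, a desmosomal cadherin (chr18:20187945-20188020, 10 reads with vehicle and 0.993 with dDAVP). It was followed by intergenic peaks near Snord123 (chr15:32230221-32230326, 9.29 and 0.652) and Lyplal1 (chr1:186181927-186182000, 8.99 and 0.97). The others lay near Cdh26, Slc39a12, Flrt3, Foxa2 and Rgs11 and in introns of Sin3b, a co-repressor, and Kcnn3, a calcium-activated potassium channel. None of the 10 had a dDAVP mean of 0. An intron 1 peak of Nedd4l, a ubiquitin ligase that removes the epithelial sodium channel from the membrane (chr18:64919621-64919783), was the vehicle-only peak with the most negative fold in the authors' deposited table, -5.74 on the log2 scale, with 20.5 summed vehicle reads and 0 with dDAVP.

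Width separated the classes, in a direction that depended on level. The narrowest width in the table was 74 bases, held by 37599 peaks. It was the median of dDAVP-only peaks and was held by 50% of them. The median was 88 bases for vehicle-only peaks, with 34.2% at the narrowest width, and 96 bases with 30.8% for 33967 distal peaks that were as weak but above the floor in both groups (higher group at 1 to 2 on the log2 scale). All distal peaks had a median of 171 bases. At a log2 mean of 1 to 1.5 the medians were 74 for dDAVP-only and 85 for vehicle-only peaks, and at 1.5 to 2 they were 76 and 90. At 2 to 2.5 they were 112 and 97, and at 2.5 to 4 they were 168 and 106, over 285 and 55 peaks. The weaker dDAVP-only peaks were thus narrower than vehicle-only peaks, and the stronger ones were wider.

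**Figure D2:**
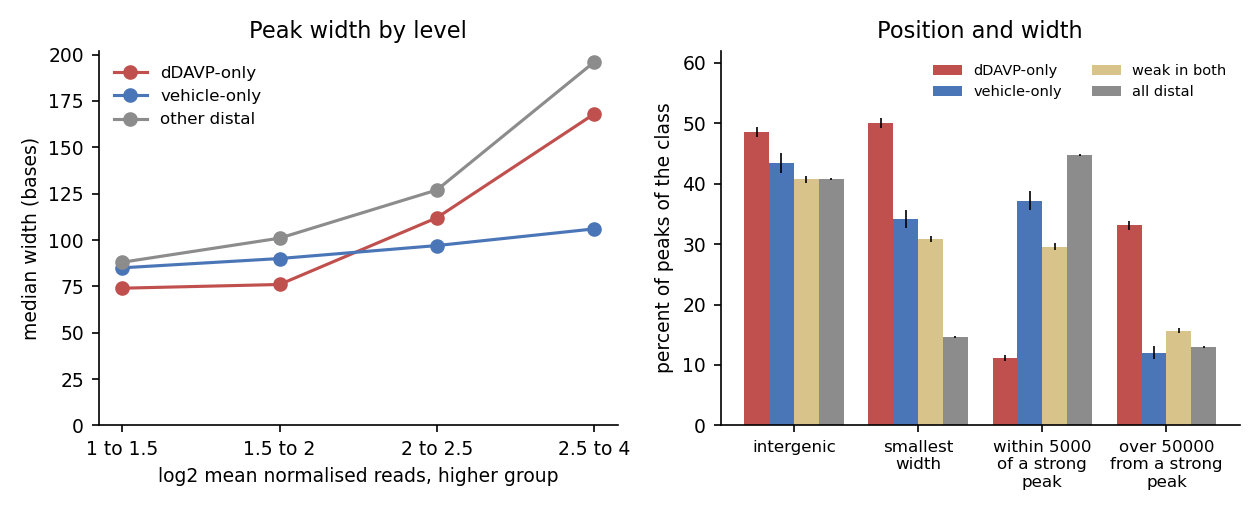
Left, median width in bases by the log2 mean of the higher group, for dDAVP-only, vehicle-only and all other distal peaks. Right, percent of peaks in each class, with exact binomial 95% intervals over peaks (counting error only). The 2 member classes cross between 1.5 to 2 and 2 to 2.5, and dDAVP-only peaks stand apart in their distance from strong peaks. In the bars of all distal peaks, strong peaks count as near themselves.

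The classes also differed in position. Only 11.1% of dDAVP-only peaks lay within 5000 bases of a strong peak (overall log2 mean of 5 or more), against 37.2% of vehicle-only, 29.6% of equally weak and 44.7% of all distal peaks. Within 1000 bases the shares were 4.3%, 28.1%, 18.9% and 30.9%. Strong distal peaks count as 0 bases from themselves, which raises both shares of all distal peaks. Those shares therefore cannot be ranked against the other classes, none of which holds a strong peak. Over 50000 bases from any strong peak lay 33.1% of dDAVP-only and 12% of vehicle-only peaks. The median distance to a strong peak was 25017 bases for dDAVP-only and 8049 for vehicle-only peaks. The vehicle-only peaks thus often flanked strong peaks, and the dDAVP-only peaks did so rarely. Without the members within 1000 bases of a strong peak the counts were 13708 and 2710, a setting chosen after the data were seen.

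Intergenic peaks were 48.5% of dDAVP-only, 43.4% of vehicle-only, 40.7% of equally weak and 40.8% of all distal peaks. Among intronic peaks, 26.6% of dDAVP-only and 34.3% of vehicle-only lay in the first intron, which often holds enhancers, beside 38.2% of all distal intronic peaks. The median distance to the nearest start site at hand was 32842 bases for dDAVP-only, 26505 for vehicle-only and 24192 for all distal peaks. The start sites at hand were incomplete, so these distances are upper limits. A peak inside intron 7 of Atp6v0d2, for example, was listed 1806929 bases from a start site. Members of 1 class also differed in how close they lay to each other. A dDAVP-only peak had another within 10000 bases in 24.3% of cases and a vehicle-only peak in 12.6%, with 3.8 times as many dDAVP-only peaks to meet. The classes did meet: 108 vehicle-only peaks (2.87%) had a dDAVP-only peak within 1000 bases, centre to centre, and the closest were 74 bases apart.

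By chromosome, dDAVP-only peaks were 4.54% (chromosome 19) to 7.55% (chromosome 2) of the distal peaks of each autosome, and vehicle-only peaks 1.32% to 1.9%. The X chromosome stood apart in both directions. Of its 4678 distal peaks, 154 were dDAVP-only (3.29%) and 123 vehicle-only (2.63%), a ratio of 1.25 where the autosomes had 2.88 to 5.73. The X chromosome was 1.08% of dDAVP-only and 3.26% of vehicle-only peaks, beside 2% of all distal peaks. Over all peaks of an overall log2 mean of 1 to 2, the ratio of dDAVP to vehicle signal was 0.934 on X and 1.13 on autosomes. In strong peaks, at 7 or more, it was 0.672 and 0.665. The difference between X and autosomes was thus seen in weak peaks and not in strong ones, and with group means only it could not be tested.

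**Figure D3:**
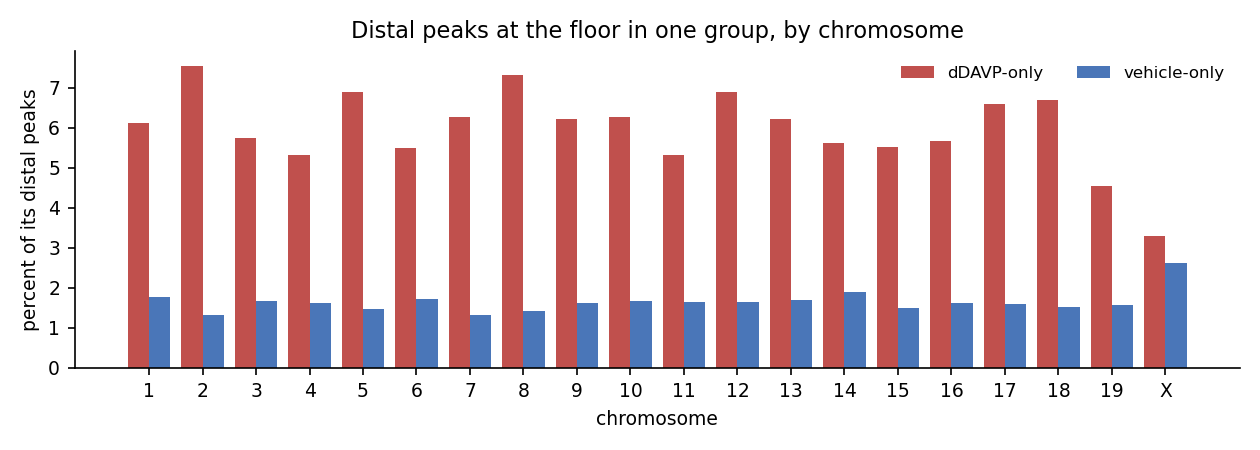
Percent of the distal peaks of each chromosome that were dDAVP-only or vehicle-only. On X the bars stand at 3.29% and 2.63%, the lowest dDAVP-only and the highest vehicle-only values among the 20 chromosomes drawn, and the Y chromosome, with 7 distal peaks, is left out.

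Both classes were spread along the genome. Of 1286 stretches of 2 Mb with a distal peak, 1246 had a dDAVP-only and 1034 a vehicle-only peak, dDAVP-only peaks were more numerous in 1150 and vehicle-only peaks in 66. The stretch with the most dDAVP-only peaks was chr10:60000001-62000000, with 54 dDAVP-only and 1 vehicle-only of 385 distal peaks. The stretch with the most vehicle-only peaks was chr1:126000001-128000000, with 18 vehicle-only and 14 dDAVP-only of 383. It holds Nckap5 and Tmem163, which had 7 vehicle-only peaks each, more than any other gene.

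The dDAVP-only peaks were assigned to 7110 nearest genes and the vehicle-only peaks to 2883, of 19073 genes with a distal peak. There were 1564 genes in both, which is 22% of the former and 54.2% of the latter. The overlap was not compared with that of genes with as many distal peaks, and nothing is read from it. A single member was the rule: 55.3% of dDAVP-only and 78.2% of vehicle-only genes had 1 peak. Nr2f2, a nuclear receptor of the COUP family, had the most, with 28 dDAVP-only and 0 vehicle-only of 97 distal peaks, spread over chr7:70379103-71117353 and 24 of them intergenic. Their dDAVP log2 means were 1.04 to 3.16, with 4 called in the authors' deposited table. Frmd4a, a scaffold of cell polarity, had 23 dDAVP-only of 63 distal peaks, 22 of them intronic. Slc24a5, an exchanger known from pigment cells, had 16 of 30 (53.3%), all intergenic and inside chr2:124890996-125057782.

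Tox3, a chromatin protein, had 18 dDAVP-only and 5 vehicle-only of 166 distal peaks, and Rbms3, an RNA-binding protein, had 17 and 0 of 172. Auts2, a chromatin regulator of neurons, had 16 and 0 of 70. Pde10a, a phosphodiesterase that breaks down cyclic AMP and cyclic GMP, had 15 dDAVP-only peaks, all in its introns, and 3 vehicle-only peaks of 124. On the vehicle side, after Nckap5 and Tmem163, Arhgap18 had 6 vehicle-only and 0 dDAVP-only of 92 distal peaks. The RNA levels of the genes with the most members overlapped between the classes. In the wild-type units, Slc24a5 was at 0.163 ± 0.2 TPM, Auts2 at 1.28 ± 0.57, Frmd4a at 1.88 ± 0.41, Pde10a at 5.15 ± 1.1, Nr2f2 at 12.8 ± 1.8, Rbms3 at 22.1 ± 7.6 and Tox3 at 23.4 ± 1.5 TPM (SD, n = 4 units). Nckap5 was at 30 ± 2.5 TPM, Tmem163 at 65.7 ± 9.1 and Arhgap18 at 71.2 ± 7.8 TPM, but D930032P07Rik, with 5 vehicle-only peaks, was at 0.301 ± 0.13 TPM (SD, n = 4 units).

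Over all members the classes differed in the RNA level of the nearest gene. That gene was at 1 TPM or more for 51% of dDAVP-only peaks, 66.6% of vehicle-only, 65.3% of equally weak and 67.2% of all distal peaks. Taken unit by unit, the share was 49.9 to 51.9% for dDAVP-only and 65.7 to 67.1% for vehicle-only peaks, so the 2 classes did not overlap over the 4 units. These units came from other libraries than the ATAC-seq, and the spread over them covers error in the RNA level and not in the peaks. The median level of the nearest gene was 1.13 TPM for dDAVP-only and 8.47 TPM for vehicle-only peaks. For intronic peaks the gene that holds the intron was at 1 TPM or more for 66.4% of dDAVP-only, 80.5% of vehicle-only and 81.9% of all distal intronic peaks. In each comparison vehicle-only peaks were near the value of all distal peaks, and dDAVP-only peaks were below it.

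Gene lists of the collecting duct and of other cells were counted in the same way. The genes of the principal cell, which carries AQP2, had 569 distal peaks, of which 9 were dDAVP-only (1.58%) and 7 vehicle-only (1.23%). Those of the intercalated cell had 447, with 7 (1.57%) and 6 (1.34%). Beside these, 40 genes of synapses and neuronal adhesion had 1125 distal peaks, with 159 dDAVP-only (14.1%) and 19 vehicle-only (1.69%). All distal peaks had 6.12% and 1.61%. Only weak peaks can be members, and these shares are over peaks of every strength. The distal peaks of the synaptic list had a median width of 141 bases, against 167 for the principal and 175 for the intercalated cell list. Shares among equally weak peaks were not computed by list. Among 40 measured synaptic genes, 9 were at 1 TPM or more in the wild-type units, against 15 of 15 principal cell and 18 of 18 intercalated cell genes.

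**Figure D4:**
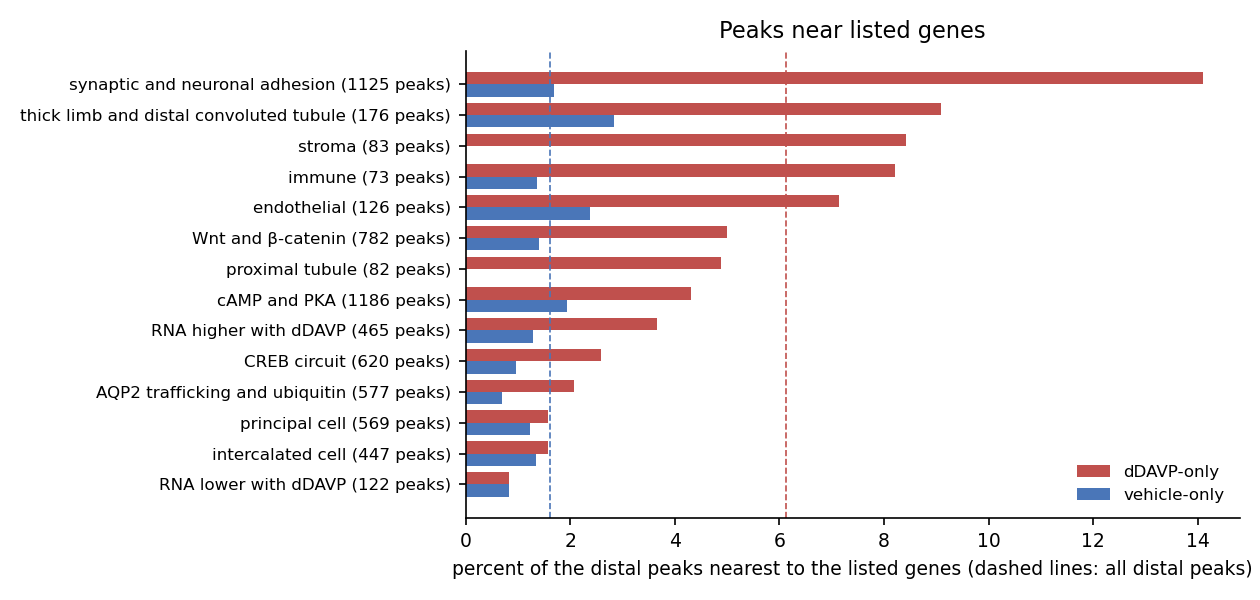
Percent of the distal peaks nearest to the genes of each list that were dDAVP-only or vehicle-only, with the number of distal peaks in brackets and dashed lines at the shares of all distal peaks (6.12% and 1.61%). The synaptic list is highest for dDAVP-only at 14.1%, and the principal and intercalated cell lists are at 1.58% and 1.57%.

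Of 39 synaptic genes with a distal peak, 35 had a dDAVP-only and 12 a vehicle-only peak. Over all 19073 genes with a distal peak these numbers were 7110 and 2883. The genes named here were picked after their counts were seen. Rbfox1, a splicing factor of neurons, had 14 dDAVP-only and 1 vehicle-only of 129 distal peaks. Lrrc4c and Ptprd, adhesion proteins of synapses, had 12 and 1 of 37 and 12 and 2 of 127. Tenm3 had 10 and 0 of 48, and Cntn5, a contactin, had 9 and 0 of 18. Kcnip4 and Lrrtm4 had more vehicle-only peaks, with 2 and 4 of 60 and 0 and 1 of 22. The RNA of these genes was low in the wild-type units, with Cntn5 at 0.425 ± 0.37, Lrrc4c at 0.487 ± 0.26, Ptprd at 4.86 ± 0.69 and Rbfox1 at 5.55 ± 0.94 TPM (SD, n = 4 units).

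Genes of other kidney cells had few distal peaks in these ducts, and 4 of the 5 lists had dDAVP-only shares above that of all distal peaks. The thick limb and distal convoluted tubule had 16 dDAVP-only of 176 (9.09%), stroma 7 of 83 (8.43%), immune cells 6 of 73 (8.22%) and endothelium 9 of 126 (7.14%), while the proximal tubule had 4 of 82 (4.88%). The promoter signal of the lists was summed as well. The summed promoter signal of dDAVP over vehicle was 0.663 over all promoter peaks, 0.662 for 15 principal cell and 0.623 for 12 intercalated cell genes. It was 1.06 for 10 endothelial, 0.945 for 2 immune, 0.886 for 2 proximal tubule, 0.803 for 4 stromal and 0.767 for 8 thick limb and distal convoluted tubule genes. All of these lists rest on small sums (29.5 to 709 vehicle reads), and their part in the dDAVP-only peaks was not tested. Across all peaks the ratio also depended on strength. It was 0.665 at an overall log2 mean of 7 or more and 1.12 at 1 to 2. The list ratios were not compared with promoters of the same strength. Fewer cells of a type and less open chromatin per cell cannot be told apart in these samples.

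Near genes of vasopressin signalling, the dDAVP-only share was below that of all distal peaks. The list of cyclic AMP and protein kinase A genes had 51 dDAVP-only (4.3%) and 23 vehicle-only (1.94%) of 1186 distal peaks. Pde10a gave 15 of the 51. Its strongest (chr17:8744011-8744213, in intron 1) had 5.97 reads per library with dDAVP and 0.33 with vehicle, and was called in the authors' deposited table (adjusted p = 0.017). A peak in intron 1 of Pde3b, another phosphodiesterase (chr7:114480287-114480454), had 5.65 and 0.684 reads. Anchors of protein kinase A had members of both classes. Akap2 and Akap11 had 3 and 1 vehicle-only peaks and no dDAVP-only peak, Akap1, Akap6 and Akap12 had 2, 2 and 1 dDAVP-only peaks and no vehicle-only peak, Akap13 had 5 dDAVP-only and 3 vehicle-only peaks, and Akap7 had 1 of each. The Akap11 peak (chr14:78417522-78417604) had 3.97 reads per library with vehicle and 0 with dDAVP.

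The list of CREB, its coactivators and its early target genes had 16 dDAVP-only (2.58%) and 6 vehicle-only (0.968%) of 620 distal peaks. Sik1, a kinase that restrains the CREB coactivators, had 3 dDAVP-only peaks, the strongest at 4.25 against 0.65 reads per library. Crtc3, such a coactivator, had 3 vehicle-only peaks and no dDAVP-only peak. Genes of AQP2 trafficking and ubiquitin ligation had 12 (2.08%) and 4 (0.693%) of 577. Sgk1, an aldosterone-responsive kinase, had 2 dDAVP-only peaks and 1 vehicle-only peak, all in its introns. Wnt and β-catenin genes had 39 (4.99%) and 11 (1.41%) of 782.

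Among principal cell genes, members lay near Gata3, a transcription factor (3 dDAVP-only and 2 vehicle-only of 55), Nr3c2, the mineralocorticoid receptor (2 and 3 of 127), Npnt, Kcnj1 and Aqp4. Among intercalated cell genes, Foxi1, the factor that specifies these cells, had 2 dDAVP-only peaks, and Atp6v0d2 and Atp6v1c2, subunits of the proton pump, had 2 and 1. Slc26a4 had 1 dDAVP-only and 0 vehicle-only of 30 distal peaks. Vehicle-only peaks and no dDAVP-only peak were found at Car12, a carbonic anhydrase, Hepacam2, Rhcg, an ammonia transporter, and the proton pump subunit Atp6v1g3. Kit had 1 dDAVP-only and 2 vehicle-only of 79 distal peaks. With 1 to 3 peaks a gene, none of these counts separates a gene from its list.

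The RNA-seq libraries gave a readout that the rule had not used. The limma test of dDAVP against vehicle was run on all 5035 listed genes, and 35 passed an adjusted p of 0.05 (0.695%), of which 28 were higher (0.556%) and 7 lower (0.139%). The table listed only genes above 10 TPM in every library, which left 1192 of the 7110 nearest genes of dDAVP-only peaks (16.8%) and 680 of the 2883 of vehicle-only peaks (23.6%). Of the 1192, 7 rose and 1 fell (0.671%), and of the 680, 4 rose and 1 fell (0.735%). Both shares are near the background of 0.695%. The median log2 fold change was -0.08 for the nearest genes of dDAVP-only peaks, -0.10 for those of vehicle-only peaks and -0.06 for all genes tested. Both medians were close to that of all genes tested. Without dDAVP library 3, 7 genes passed in all, 2 of them nearest to dDAVP-only and 0 to vehicle-only peaks. RNA of neighbouring segments varied within both groups: 5 listed proximal tubule markers summed to 587.6 to 12160 TPM per vehicle and 1353 to 12270 TPM per dDAVP library, and 2 thick limb and distal convoluted tubule markers to 481.6 to 1426 and 366.6 to 5556 TPM. Their part in these results was not tested.

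Of the nearest genes that passed, 10 are described, and Btc and Dab1 were nearest genes of both classes. They were picked by a test on the library values given here. Groups that do not overlap are therefore no result beside that test. Without dDAVP library 3 only Cdk18 and Id2 of the 10 passed. Btc and Ctsh lost their call in that fit alone among the 8 that left out a library, Jpt2 also without dDAVP library 1, and the other 5 in 5 or 6 of the 8. Btc, which encodes the growth factor betacellulin, had 2 dDAVP-only and 2 vehicle-only peaks. Its RNA was 65.15, 50.67, 101.1 and 121.2 TPM in the vehicle libraries and 293.9, 274.1, 316.8 and 259 TPM in the dDAVP libraries. The groups did not overlap, and the rise was 3.54-fold (log2 1.82, SE 0.26, limma adjusted p = 0.011, n = 4). In its first intron a dDAVP-only peak (chr5:91391463-91391579, 14.5 summed dDAVP and 2.9 vehicle reads) lay beside a vehicle-only peak (chr5:91391249-91391322, 8.18 vehicle and 2.6 dDAVP reads), with a second vehicle-only peak at chr5:91390185-91390298. Members of opposite class thus lay side by side in a gene whose RNA rose.

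Dab1, an adaptor of reelin signalling, had 9 dDAVP-only and 2 vehicle-only of 112 distal peaks, 8 and 2 of them in its introns. Its RNA was 25.25, 25.57, 13.14 and 56.25 TPM with vehicle and 111.6, 105.7, 130 and 96.54 TPM with dDAVP, a rise of 4.06-fold (log2 2.02, SE 0.37, limma adjusted p = 0.031). The groups did not overlap. Leaving out 1 library at a time ended its call in 6 of 8 cases. None of its members was called in the authors' deposited table, where their adjusted p was 0.104 to 0.607.

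Cdk18, a kinase of the PCTAIRE family, had 1 dDAVP-only peak of the narrowest width (chr1:132157271-132157344, 7.62 against 1.95 summed reads). Its RNA was 32.24, 32.55, 47.83 and 18.98 TPM with vehicle and 177.6, 177.3, 126 and 183.3 TPM with dDAVP, the largest rise of the 10, 5.12-fold (log2 2.35, SE 0.29, limma adjusted p = 0.00345). The groups did not overlap. Ctsh, a lysosomal cathepsin, rose 2.19-fold (log2 1.13, SE 0.17, limma adjusted p = 0.011) and had 3 dDAVP-only peaks, of which 2 lay in introns of its neighbour Rasgrf1. Mal2 and Jpt2 rose 2.24- and 2.12-fold and had 1 dDAVP-only peak each.

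Id2, an inhibitor of basic helix-loop-helix transcription factors, was the 1 nearest gene of a dDAVP-only peak that passed the test with lower RNA. It went from 580.5, 648.1, 400 and 648.9 TPM with vehicle to 186.4, 200, 122.7 and 163.4 TPM with dDAVP (log2 -1.75, SE 0.21, limma adjusted p = 0.0032), and its 1 peak (chr12:25086489-25086562) was higher with dDAVP. On the vehicle-only side, Ldha, a lactate dehydrogenase subunit, rose 1.87-fold and Adh1, an alcohol dehydrogenase, 1.9-fold, although their peaks were lower with dDAVP. Among the nearest genes that passed, Car12 was the only one whose RNA and peak were both lower. Its RNA was 1341, 1169, 886.8 and 831.2 TPM with vehicle and 433.4, 655, 515.5 and 489.9 TPM with dDAVP (log2 -1.0, SE 0.19, limma adjusted p = 0.0378). With rescaling by median of ratios and with quantile normalization it did not pass (log2 -0.94 and -0.95, limma adjusted p = 0.0596 and 0.0502). Its vehicle-only peak lay in intron 3 (chr9:66746732-66746805), with 14 summed vehicle reads and 2.91 with dDAVP. Counted by gene, leaving out Btc and Dab1, peak and RNA had the same direction for Cdk18, Ctsh, Jpt2, Mal2 and Car12. The directions were opposite for Id2, Ldha and Adh1. No peak of these genes was called in the authors' deposited table, where their adjusted p was 0.167 (Ctsh) to 0.592 (Id2). Of the 35 genes that passed, 28 rose, and 79.2% of all members were dDAVP-only. The same direction would therefore be common without any link, and nothing is read from the tally.

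**Figure D5:**
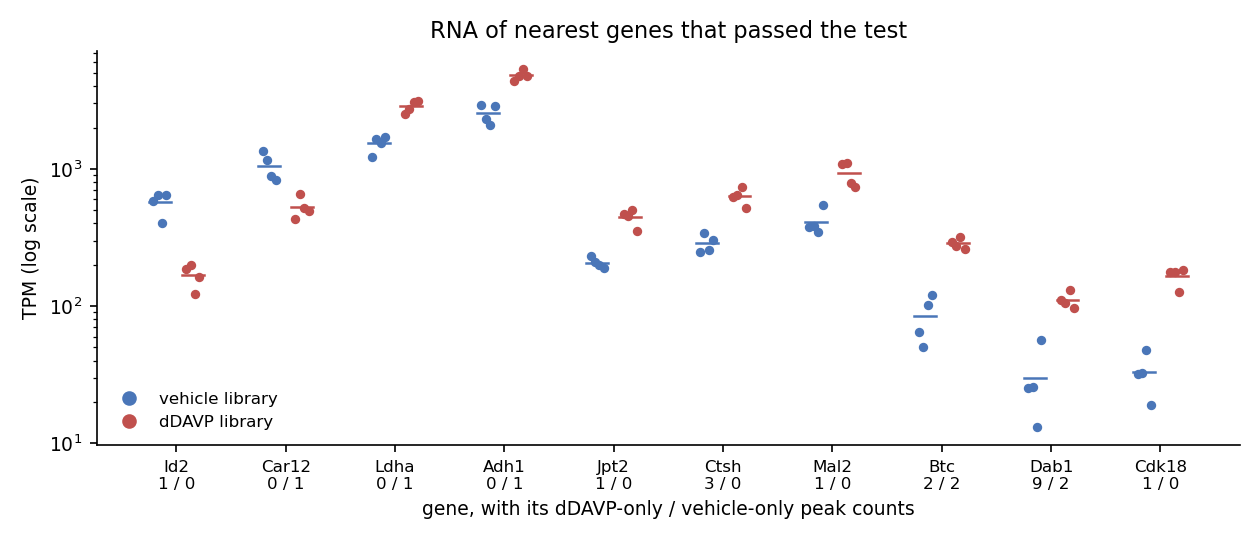
TPM on a log scale in each of the 4 vehicle and 4 dDAVP RNA-seq libraries, with the group mean as a line, for 10 nearest genes of members that passed the limma test. Under each gene are its numbers of dDAVP-only and vehicle-only peaks. The groups do not overlap for any of the 10, which were picked by a test on these same values.

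Some nearest genes were on a list but their RNA did not pass. Those with dDAVP-only peaks alone had log2 fold changes on both sides of 0, such as 1.82 for Pde3b and -2.66 for Fos. Those with vehicle-only peaks alone were Hepacam2, Lrp6, Pkig, Atp6v1g3, Rhcg and Pkib. They were all lower with dDAVP, at -0.64 (Pkib) to -0.21 (Hepacam2). Of all genes tested, 56.4% were below 0, and the difference was not tested. The shared direction holds only with the genes that passed set aside. Of the listed genes that passed with vehicle-only peaks alone, Adh1 (0.93) and Ldha (0.90) rose and Car12 fell. The examples below were picked after their values were seen. Pde3b, with 2 dDAVP-only peaks, had 26.23 TPM with vehicle and 91.72 TPM with dDAVP (limma adjusted p = 0.0657). Jun, with 2 dDAVP-only peaks and 1 vehicle-only peak, had 369.1 and 89.33 TPM (limma adjusted p = 0.108), and Fos, with 2 dDAVP-only peaks, had 1415 and 506 TPM (limma adjusted p = 0.26). Rhcg, with 1 vehicle-only peak, had 2564 and 1687 TPM (limma adjusted p = 0.104). Gata3, with members of both classes, had 117.7 and 124.1 TPM (limma adjusted p = 0.916).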

How the data were processed

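The ATAC-seq table, per the file headers, held for each peak the authors' log2 mean normalised read count of each group and of both together, a log2 fold change, a p-value with its adjusted value, a width in bases, a nearest gene and an annotation. cutadapt 3.4, Bowtie2, MACS2 and DiffBind are named without settings in the submitters' processing notes, with build mm10. "NT" was read as vehicle. Both RNA-seq tables held TPM deposited by the authors, and STAR and RSEM are named in the same notes. TPM keeps no record of depth. The members, the gene lists (among them 1 of genes that rose and 1 of genes that fell in these RNA libraries) and the tests were chosen with earlier results of these data known. The ATAC-seq table gave group means, and values per library were not analysed here. In the RNA-seq tables, 12 mutant columns and 8 log2 copies were not used.

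The floored mean of a member was recovered from the mean of both groups. Start sites and sequences came from RefSeq tables of GRCm38.p6. The start sites were incomplete: chromosome 18 had none, so its peaks had no start-site distance, and some were missing on other chromosomes. Of nearest genes, 97.2% of dDAVP-only and 97.3% of vehicle-only peaks matched the wild-type table. RNA was tested with limma 3.58.1 (eBayes with trend, R 4.3.3) on log2(TPM + 1), two-sided, 4 against 4 libraries, with Benjamini-Hochberg adjustment over 5035 genes and a threshold of 0.05. No minimum removed a gene, and fold changes are on the log2(TPM + 1) scale. The test was checked on simulated data. Nothing says that the libraries of a group came from separate animals, so p-values measure the spread between libraries. For 1 dDAVP RNA-seq library (4) the title carries different numbers for the duct and the infusion.

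The peaks named were the 10 strongest of each class, the 3 just inside and 3 just outside the limit, up to 5 per list near genes of the duct, signalling and RNA lists, those of the genes with most members, and those whose nearest gene passed the RNA test, of which 1 gene is not reported here. The genes named singly from the synaptic list, D930032P07Rik, the genes of the last paragraph and the Nedd4l peak were chosen after their values were seen. Since no genome was used, sequences were taken from members inside start-site windows. Alternatives were other limits and floors, the authors' adjusted p, distance from a start site, autosomes only, other pseudocounts, TPM minimums and scalings, a replicate block and leaving out each library.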

Additional observations from a re-analysis of the deposited data

Results flagged for a closer look

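Among the 22 groups of 4 checked (10 nearest genes that passed the RNA test in each treatment, and the shares of nearest genes at 1 TPM or more over the 4 wild-type units), 1 had a sample far from the others. In the dDAVP libraries, Cdk18 was at 126 TPM in library 3 and at 177.3 to 183.3 TPM in the others, so the gap to the nearest library was 0.895 of the range. Library 3 was still above all vehicle libraries (18.98 to 47.83 TPM). About 1 in 20 groups is picked out in this way by chance.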

How the results depend on the processing

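The dDAVP-only peaks outnumbered the vehicle-only peaks under every alternative run. These settings are not independent of the rule. Higher limits, the authors' adjusted p and a floored mean of exactly 0 keep parts of the same members, cut on the values compared. Their numbers were 7844 and 1658 with a limit of 1.5, 1963 and 396 with a limit of 2, 389 and 23 with the authors' adjusted p below 0.05, and 2609 and 204 where the recovered mean of the floored group was exactly 0. Vehicle-only peaks were 6329 with a limit of 0.5, 7171 with a floor of 0.5, and 2087 with dDAVP rescaled to equal total signal. The settings on the recovered mean, both rescalings and that on distance from a strong peak, were chosen after the data were seen. The percent of members that were dDAVP-only was 74.3 with a limit of 0.5 and 74.3 with a floor of 0.5, 82.6 and 83.2 with limits of 1.5 and 2, 94.4 with the authors' adjusted p, 92.7 with a floored mean of exactly 0, 89.7 and 72.2 with the rescalings to total signal and to weak peaks, and 83.5 away from strong peaks. Median widths of dDAVP-only and vehicle-only peaks were 86 and 92 with a limit of 1.5 and 80 and 90 with a floor of 0.5, and the order turned to 118 and 97 with a limit of 2 and 140 and 102 with the authors' adjusted p. The vehicle-only width was 84 with a limit of 0.5, 83 with a floored mean of exactly 0 and 84 away from strong peaks, and the dDAVP-only width was 76 with the rescaling to weak peaks. The intergenic share (11 of 11 alternatives), the distance to a start site at hand, nearness to a strong peak and the share on X (10 of 10 each) kept their direction between the classes. Nearest genes at 5 TPM or more were 38.6% for dDAVP-only and 55.2% for vehicle-only peaks, and without each unit in turn the shares at 1 TPM were 50.7 to 51.5% and 66.6 to 66.8%. With a replicate block by CCD number, 8 genes passed the RNA test, 1 of them nearest to a dDAVP-only peak (Id2) and 0 to a vehicle-only peak. The numbers share no stated animal, and same-numbered libraries did not all deviate together (correlations of -0.15 to 0.23). Leaving out each library in turn gave 7 to 47 genes, 2 to 12 of them nearest to dDAVP-only and 0 to 5 to vehicle-only peaks, with the lowest values without dDAVP library 3. No fit reversed any of the 10 nearest genes described, and Id2 passed in all 15 alternatives. The other pseudocounts, TPM minimums and scalings gave 34 to 38 genes, and of the 10 only Car12 lost its call under any of them (adjusted p of 0.0596 and 0.0502 with the 2 scalings). No paired analysis and no leaving out of libraries was possible for ATAC-seq because the table gives group means. GC content, repeats and motif windows of 200 and 400 bases around all members were not run, since no genome was used. The few reads per peak limit every statement on a single member.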
